A study of Mus musculus with 19 samples.

Results

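Genes of the MHC class I antigen presentation pathway were followed through mouse neural progenitor cells with and without Mettl14. The 9 genes were B2m, H2-D1, H2-K1, Tap1, Tap2, Tapbp, Psmb8, Psmb9 and Nlrc5, taken by name from the 54829 annotated genes in the count tables, and all 9 passed the filter on low counts. The mice were Mettl14 wild type (WT) or conditional knock-out (KO), and progenitors from the cortex of their embryos were grown in a medium with FGF2 and EGF. Mettl14 is a subunit of the writer complex that places N6-methyladenosine (m6A) on RNA. The ladder libraries, 4 from WT and 4 from KO cells, were made from mRNA separated by length into 7 bands with a barcode for each band, and were sequenced as paired-end reads of 75 bases. The standard libraries, 3 from WT cells, were made without that separation; the protocol gives single-end reads of 50 bases for an unseparated WT control. Nanopore long reads, native RNA and direct cDNA, came from 2 WT and 2 KO samples for each chemistry, and the assemblies combined both samples of a genotype. The driver of the conditional deletion, the age of the embryos and whether replicates were separate animals or cultures are not given in the sources used here, so p-values measure the spread between these samples, which may be technical. All groups were bulk RNA, in which fewer cells of a type and less RNA per cell cannot be told apart.

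Class I molecules show fragments of a cell's own proteins at its surface to CD8 T cells. Proteasomes cut proteins into peptides, the TAP transporter carries the peptides into the endoplasmic reticulum, and tapasin and its partner chaperones load them onto a heavy chain paired with beta-2-microglobulin. Interferons raise many of these genes together, partly through NLRC5, a transactivator that acts with the RFX complex at class I promoters. Neurons and neural progenitors are known for low class I levels in the absence of interferon.

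The sequence before the start of B2m and H2-K1 is shown because these promoters hold the elements through which class I genes are known to be regulated together. Both are 250 bases from RefSeq on GRCm38.p6, 5′ to 3′ toward the gene, with capitals on matches to 5 motifs searched on both strands. The B2m window is chr2:122147437-122147686 on the plus strand and the H2-K1 window is chr17:34000348-34000597 on the minus strand.
B2m: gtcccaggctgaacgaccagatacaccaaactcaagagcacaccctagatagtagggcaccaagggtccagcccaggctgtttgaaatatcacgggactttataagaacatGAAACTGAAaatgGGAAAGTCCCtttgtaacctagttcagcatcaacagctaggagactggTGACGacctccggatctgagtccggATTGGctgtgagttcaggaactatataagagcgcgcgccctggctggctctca
H2-K1: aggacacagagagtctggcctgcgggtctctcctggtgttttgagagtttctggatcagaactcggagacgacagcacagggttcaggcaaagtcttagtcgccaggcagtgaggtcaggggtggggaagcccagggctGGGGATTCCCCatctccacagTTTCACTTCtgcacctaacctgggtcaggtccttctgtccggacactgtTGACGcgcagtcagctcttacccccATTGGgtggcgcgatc
The motifs were the interferon-response core GAAANNGAA and its second spacing GAANNGAAA, the last one added after the windows had been read, the Y-box core CCAAT, the X2-box core TGACG, and the kappaB motif. Windows were found for 7 of the 9 genes, and Tap2 and Nlrc5 had none. The windows end at the RefSeq start, which can differ from the start of the leading transcript in WT ladder libraries. The distance was 474 bases for Psmb8, 434 for Psmb9, 364 for H2-D1, 246 for Tap1 and 159 for Tapbp. It was 1 base for B2m and 0 for H2-K1. TGACG was in 5 of the 7 windows (B2m, H2-D1, H2-K1, Tap1 and Psmb9) and in 17.9% of 27025 RefSeq windows of the same length. CCAAT was in 6 of the 7, all but Psmb8, and in 34.5% of all windows. The kappaB motif was in B2m, H2-D1 and H2-K1 and in 7.01% of all windows. GAAANNGAA was in B2m (7.16% of all windows) and GAANNGAAA in H2-D1 and H2-K1 (6.34%). The windows of H2-K1 and H2-D1 shared an unbroken run of 47 bases that holds the kappaB match.
shared run of H2-K1 and H2-D1: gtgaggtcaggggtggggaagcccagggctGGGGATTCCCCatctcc
The Tap1 and Psmb9 windows are not independent: the genes are read in opposite directions from starts 226 bases apart, and 225 bases belong to both windows. A match is a run of letters and not a measured binding site.

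Against WT, KO ladder libraries had lower H2-K1, H2-D1, Psmb8 and Nlrc5 and higher Tap1, Tap2 and Tapbp. B2m and Psmb9 were not called. Levels are CPM, estimated counts scaled to the total of the library and TMM-normalised, and a call is an adjusted p under 0.05 in edgeR's quasi-likelihood test over 18687 genes. Thus 3 of 9 genes were higher and 4 were lower in KO, where 26.4% of all genes tested were called higher, 27.2% lower and 53.6% in either direction. The median log2 fold change was -0.29 over the 9 genes and -0.03 over all genes. In 5 of the 9 genes the WT and KO libraries did not overlap, which was also the case for 49% of all genes. So many genes were called that the number called among the 9 says nothing particular about them, and their values are given below by step of the pathway. Mettl14 itself, which checks the genotype labels of the ladder libraries, was 20.2 to 28.4 CPM in WT and 6.13 to 8.07 CPM in KO.

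**Figure D1:**
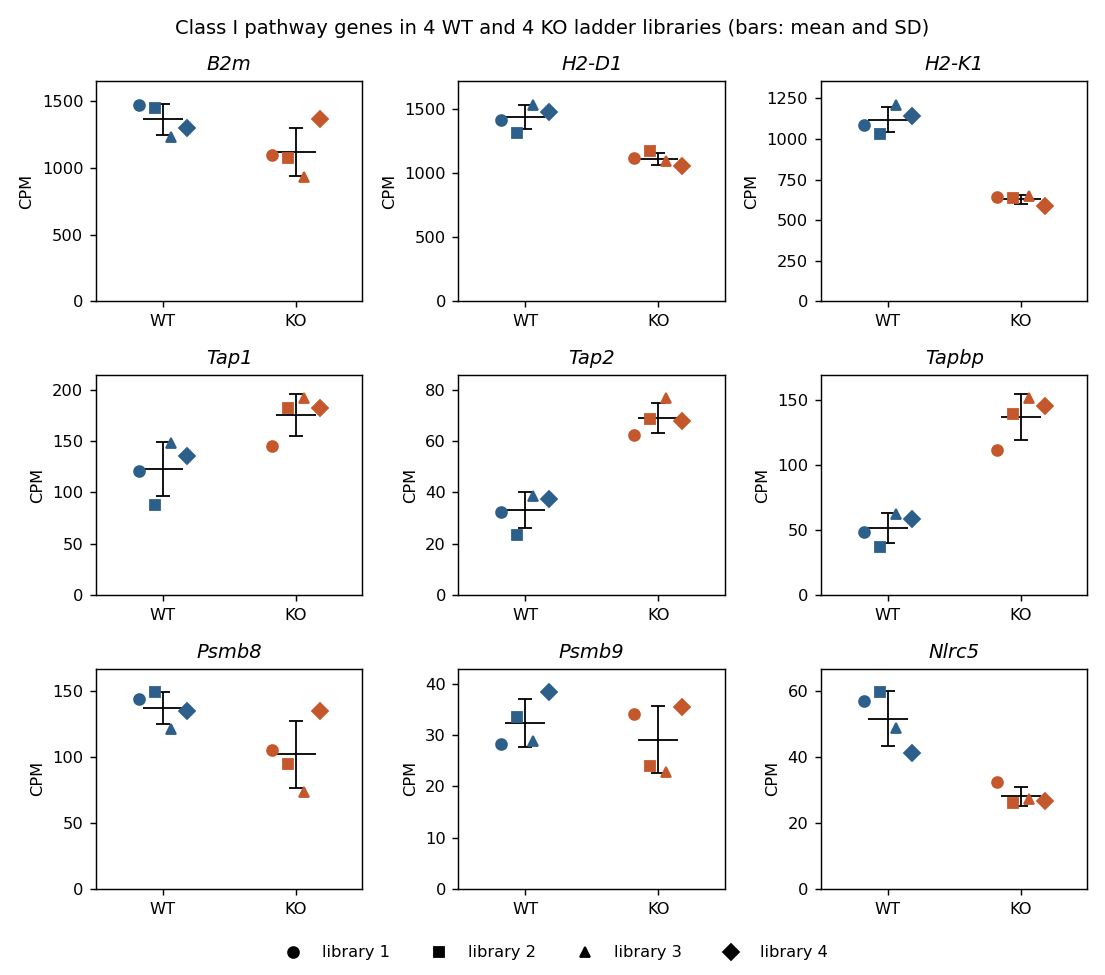
CPM (vertical axes, from 0) of the 9 genes in 4 WT and 4 KO ladder libraries; marker shapes give the library number, and bars give the mean and SD. H2-K1, H2-D1 and Nlrc5 in KO lie below every WT library, Tap2 and Tapbp lie above every WT library, and KO library 4 is the highest KO library for B2m, Psmb8 and Psmb9.

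The heavy chains fell by different amounts. H2-K1, which encodes the K heavy chain and lies on chromosome 17 (33996017 to 34000347, minus strand, GRCm38), had 1088, 1029.8, 1211 and 1142 CPM in the WT libraries and 645, 635, 649 and 587 CPM in the KO libraries. The highest KO library was well below the lowest WT library. The log2 fold change was -0.83 with a standard error (SE) of 0.11, adjusted p = 6.1e-05 by edgeR. H2-D1, the D heavy chain on the same chromosome (35262730 to 35267499, plus strand), had 1409, 1315, 1533 and 1477 CPM in WT and 1115, 1174, 1094 and 1057 CPM in KO. These groups did not overlap either, but the difference was smaller, with a log2 fold change of -0.37 (SE 0.11, adjusted p = 0.013 by edgeR). The H2-D1 call was lost under 4 of 18 alternatives: limma on log2(TPM + 0.1) (adjusted p = 0.079), no filter on low counts (adjusted p = 0.13), all 3 groups in 1 edgeR fit (adjusted p = 0.078) and a test beyond a 1.5-fold change. The last of these cannot call an estimate smaller than 1.5-fold, such as this one. As a share of their summed TPM (the deposited abundance per transcript length), H2-D1 was 50.1% ± 1.29 in WT and 57.5% ± 0.939 in KO (SD, n = 4 each). The WT libraries ran from 49.3% to 52.0% and the KO libraries from 56.2% to 58.4%. The adjusted p over 6 ratios was 0.043 in a two-sided exact permutation test, whose smallest possible raw p is 0.029.

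B2m encodes beta-2-microglobulin, the light chain that every classical class I molecule needs, and lies on chromosome 2 (122147686 to 122153083). It had 1475, 1453, 1234 and 1303 CPM in WT and 1097, 1076, 933 and 1364 CPM in KO. KO libraries 1 to 3 were below all WT libraries, and KO library 4 was among them. The log2 fold change was -0.29 (SE 0.14, adjusted p = 0.097 by edgeR), and without KO library 4 it was -0.39 with an adjusted p of 0.015. KO library 4 was also the highest of the KO libraries in Psmb5, Psmb6, Psmb7, Psmb10, Pomp, Psme1 and Psme2, in Psmb5 with 307 CPM beside 169.7 to 211 CPM in the other KO libraries; the part of this in the B2m result was not tested. The log2 ratio of B2m to the sum of H2-D1 and H2-K1 in TPM was 0.32 ± 0.23 in WT and 0.62 ± 0.27 in KO (SD, n = 4 each; adjusted p = 0.21, exact permutation test).

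Genes of near-identical sequence surround the heavy chains, and reads may be divided among them by the estimation. Summed over 13 genes (H2-D1, H2-K1 and the H2-Q and H2-T genes), an alternative added after seeing the data, the heavy chains had 3200 CPM ± 177 in WT and 2459 CPM ± 53.0 in KO (log2 fold change -0.38, SE 0.11, adjusted p = 0.012 by edgeR). Of 20 other class I and class I-like heavy chains, 18 were tested, 4 were higher, 7 were lower and 7 were not called. H2-T23, which encodes Qa-1, rose from 155 CPM to 314 CPM ± 40.6, whereas the long reads, described below, had it lower in KO. Fcgrt, the heavy chain of the neonatal Fc receptor and a partner of B2m, rose from 12.7 to 29.5 CPM. H2-T24 rose from 1.60 to 2.46 CPM. H2-Q10 fell from 3.30 to 1.66 CPM, H2-Q6 from 2.04 to 1.18 CPM and H2-M3, which presents formylated peptides, from 16.2 to 10.8 CPM. Falling and rising genes thus stood side by side among the heavy chains.

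Both transporter subunits and tapasin were higher in KO. Tapbp encodes tapasin, which bridges TAP and the empty heavy chain (chromosome 17, 33915899 to 33929292). It had 48.3, 36.95, 62.3 and 58.4 CPM in WT and 112, 139, 151 and 145 CPM in KO. Every KO library was above every WT library, with a log2 fold change of 1.41 (SE 0.17, adjusted p = 2.8e-05 by edgeR), the largest among the 9. Tap2, one subunit of the peptide transporter (chromosome 17, 34203527 to 34216321), had 32.6, 23.3, 38.8 and 37.4 CPM in WT and 62.4, 68.5, 76.6 and 67.8 CPM in KO. The groups did not overlap, with a log2 fold change of 1.06 (SE 0.15, adjusted p = 1.3e-04 by edgeR).

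Tap1, the other subunit (chromosome 17, 34187553 to 34197225), had 121, 87.8, 148 and 135 CPM in WT and 146, 182, 191 and 182 CPM in KO. KO library 1 was just below WT library 3. The log2 fold change was 0.51 (SE 0.16, adjusted p = 0.018 by edgeR), and in a test against a 1.5-fold change Tap1 was not called (adjusted p = 0.87). The estimate is smaller than 1.5-fold, so that test could not call Tap1. WT library 2 was the lowest of all 8 libraries for Tap1, Tap2 and Tapbp. The subunits changed unequally: Tap1 made up 77.6% ± 0.490 of their summed TPM in WT and 70.05% ± 1.41 in KO (SD, n = 4 each; adjusted p = 0.043, exact permutation test), with every KO library below every WT library.

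The partners of loading and trimming were mixed. Of 13 such genes tested, 5 were higher, 4 were lower and 4 were not called, with a median log2 fold change of 0.14. Pdia3 (ERp57), the thiol oxidoreductase bound to tapasin, rose from 284 CPM ± 15.7 to 423 CPM ± 18.3. Calr (calreticulin), the chaperone of the same complex, fell from 405 CPM ± 50.9 to 255 CPM ± 53.8, whereas the long reads had it higher in KO. Hspa5 rose from 508 to 709.5 CPM, and Sec61a1, of the protein channel of the endoplasmic reticulum, rose from 155 to 238 CPM. Erap1, which trims peptides, fell from 40.3 to 29.7 CPM, and the cytosolic peptidase Tpp2 fell from 41.7 to 32.2 CPM.

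**Figure D2:**
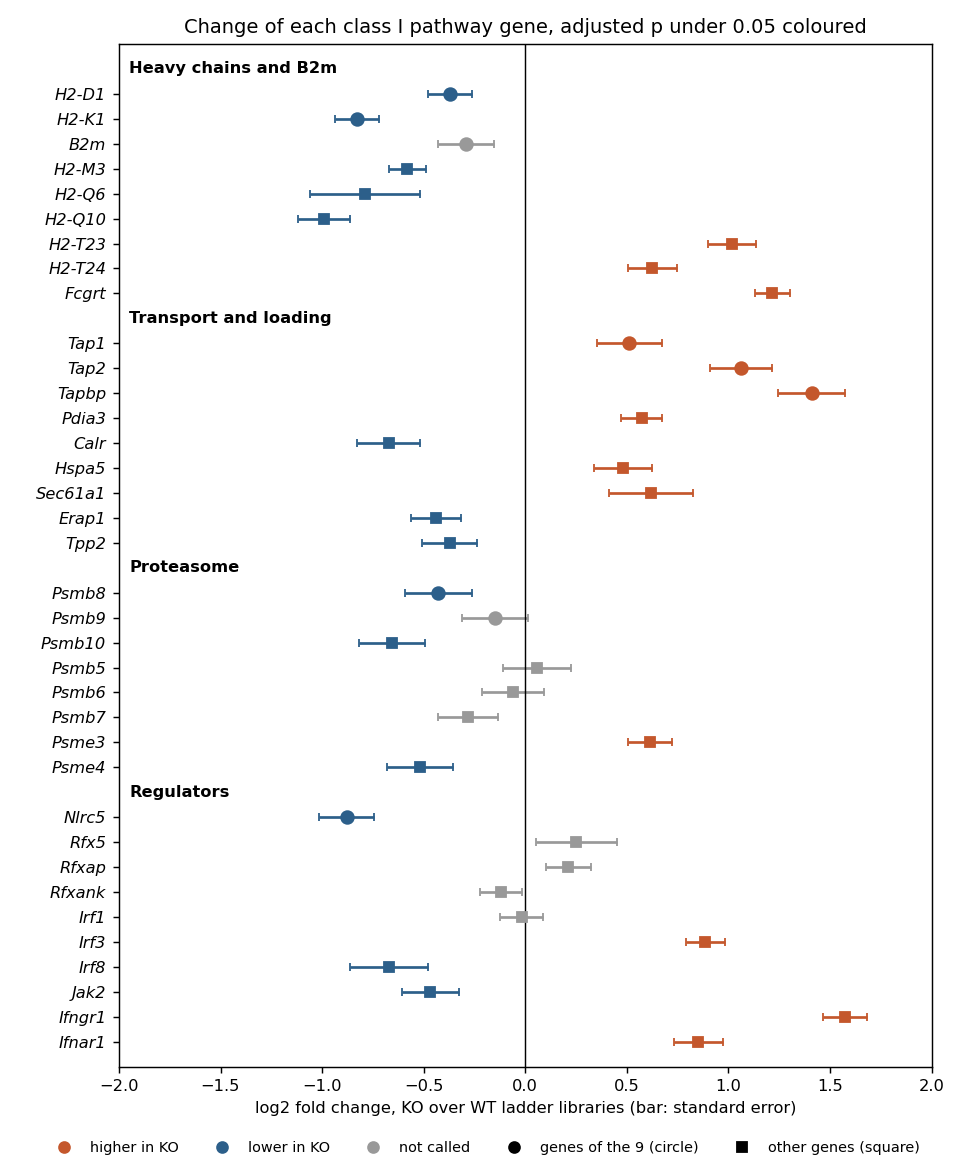
Log2 fold change of KO over WT ladder libraries (horizontal axis) with its standard error for the 9 genes (circles) and related genes (squares), grouped by role; orange is called higher, blue is called lower and grey is not called. Tap1, Tap2 and Tapbp lie right of 0 and H2-D1, H2-K1, Psmb8 and Nlrc5 lie left of it.

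The catalytic subunits of the immunoproteasome were lower or not called. Psmb8 encodes beta5i, which replaces Psmb5 in the immunoproteasome (chromosome 17, 34197721 to 34201454). It had 144, 149, 121 and 135 CPM in WT and 105, 94.8, 73.1 and 134 CPM in KO. KO library 4 lay within the WT range and the others lay below it. The log2 fold change of -0.43 (SE 0.16) had an adjusted p of 0.045 by edgeR, and the call was lost under 11 of 18 alternatives, DESeq2 among them (adjusted p = 0.079). Another of these, the test beyond a 1.5-fold change, cannot call an estimate this small. Psmb9 (beta1i, chromosome 17, 34181987 to 34187764) had 28.2, 33.6, 28.9 and 38.3 CPM in WT and 34.1, 23.96, 22.9 and 35.5 CPM in KO, with overlapping groups and a log2 fold change of -0.15 (SE 0.16, adjusted p = 0.47 by edgeR). Psmb10 (beta2i) had 173.9, 179, 169.6 and 174 CPM in WT and 107, 94.6, 87.1 and 154 CPM in KO, with no overlap and a log2 fold change of -0.66 (SE 0.16, adjusted p = 0.0050 by edgeR).

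The constitutive subunits that these replace were not called. Psmb5 had a log2 fold change of 0.06, Psmb6 of -0.06 and Psmb7 of -0.28. A share of each pair sets aside what moves both members alike. Psmb8 made up 41.0% ± 3.02 of the summed TPM of Psmb8 and Psmb5 in WT and 33.2% ± 2.31 in KO (SD, n = 4 each; adjusted p = 0.043, exact permutation test). The KO libraries ran from 31.0% to 35.3% and the WT libraries from 37.1% to 44.5%, with no overlap. Psmb10 made up 47.5% ± 2.30 of Psmb10 and Psmb7 in WT and 42.2% ± 2.06 in KO (SD, n = 4 each; adjusted p = 0.043, exact permutation test). Here KO library 4, at 45.23%, was just below the lowest WT library, at 45.29%, and the other KO libraries ran from 40.8% to 41.6%. Psmb9 made up 7.85% ± 1.25 of Psmb9 and Psmb6 in WT and 7.40% ± 0.938 in KO, overlapping ranges (n = 4 each; adjusted p = 0.60, exact permutation test). Among 9 other proteasome genes of antigen processing, Psme3, of the nuclear PA28gamma regulator, rose from 50.6 to 77.6 CPM, Psmb10 and the regulator Psme4 (from 54.7 to 38.2 CPM) fell, and 6 were not called.

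Nlrc5, the class I transactivator (chromosome 8, 94434356 to 94527272), had 57.2, 59.7, 48.9 and 41.1 CPM in WT and 32.4, 26.1, 27.4 and 26.6 CPM in KO. All KO libraries were below all WT libraries, with a log2 fold change of -0.88 (SE 0.13, adjusted p = 2.0e-04 by edgeR). Its partners of the RFX complex were not called: Rfx5 had a log2 fold change of 0.25, Rfxap of 0.21 and Rfxank of -0.12. Irf1, an interferon-response factor of class I promoters, had 20.3 CPM ± 2.58 in WT and 20.0 CPM ± 0.601 in KO. It was not called. The interferon receptor genes Ifngr1 (16.7 to 49.7 CPM, log2 fold change 1.57) and Ifnar1 (65.85 to 119 CPM, log2 fold change 0.85) rose, as did Irf3 (32.4 to 59.9 CPM, log2 fold change 0.88). Jak2, a kinase of the interferon-gamma receptor, fell from 80.3 to 58.1 CPM, and Irf8 fell from 1.75 to 1.10 CPM. Of 30 regulators of class I transcription tested, 13 were higher, 5 were lower and 12 were not called.

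Several measures that could move with these differences were read beside them. Ribosomal RNA was 4.63% to 9.45% of counts in WT and 2.59% to 3.10% in KO. Since the ladder separates RNA by length, all genes were also divided by the length of their transcripts: the median log2 fold change ran from -0.07 to 0.06 across 5 length classes, and the class of 2000 to 3000 bases, which holds Tap1, Tap2, Tapbp and H2-D1, was at 0.06. Ladder depth was 103752000 to 126922000 estimated counts per library. Markers of microglia and blood cells were near 0 at their defining genes: C1qa, C1qb and C1qc had no count in any of the 8 ladder libraries, and the list of 14 summed (here and for the lists that follow, as CPM over the targets shared by all short-read files) to 42.8 to 48.7 CPM in WT and 53.7 to 58.2 CPM in KO. Of these 14 genes 4 had enough counts to be tested, of which 3 were higher in KO and 1 was lower. On the scale of the KO and WT comparison P2ry12 rose from 0.921 to 1.42 CPM, and Cd68, which codes for a lysosomal protein, fell from 5.41 to 3.87 CPM. The 11 class II genes summed to 24.6 to 29.3 CPM in WT and 14.1 to 21.5 CPM in KO. Cd74, 1 of them, went the other way, with 0.174 to 0.251 CPM in WT and 0.634 to 1.01 CPM in KO. On the scale of the KO and WT comparison H2-DMa had 11.7 and 6.61 CPM and H2-Ab1 6.20 and 4.59 CPM. Of 6 class II genes tested 5 were lower and 1 was higher. Endothelial markers summed to between 17.9 and 22.6 CPM (WT) or 17.6 and 23.7 CPM (KO), but single genes moved in opposite directions: of 8 tested 5 were higher and 2 were lower, among them Esam (0.175 to 1.02 CPM) and Flt1 (3.78 to 0.282 CPM), and Cldn5 and Cdh5 were too low to be tested. Meningeal fibroblast markers summed to between 23.5 and 31.0 CPM (WT) or 27.8 and 32.2 CPM (KO), most of it Islr, which fell from 19.3 to 14.997 CPM. Of 8 such markers tested 6 were higher and 1 was lower, with a median log2 fold change of 2.76. Twist1 rose from 0.141 to 2.96 CPM, Col3a1 from 0.0114 to 1.92 CPM and Pdgfrb from 0.0703 to 1.21 CPM, and Lum and Foxc1 were too low to be tested. Neural progenitor markers summed to 10423 to 11204 CPM in WT and 7633 to 9160 CPM in KO, with no overlap. On the same scale Fabp7 had 5128 to 5699 CPM in WT and 2461 to 4173 CPM in KO, and Vim 3203 to 3725 and 2301 to 2418 CPM. Going the other way, Lhx2 had 26.3 to 58.0 CPM in WT and 183 to 269 CPM in KO, and Nes 186 to 296 and 379 to 643 CPM. Of 12 neural progenitor markers 4 were higher, 2 were lower and 6, Sox2 and Pax6 among them, were not called. The part of these in the class I results was not tested.

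The transcripts behind the gene sums differed between genes in how far their shares moved. The annotation (GENCODE M21) lists 53 transcripts of the 9 genes, of which 40 were tested; 6 were higher in KO, 11 were lower and 23 were not called, where 35.2% of 48272 transcripts were called in either direction. Of 16 tested member transcripts with a retained intron, 7 were lower and 1 was higher; of all 9277 such transcripts tested, 25.5% were lower and 6.18% higher. Usage, the share of each transcript within its gene, changed in 2 of the 8 genes with more than 1 tested transcript (Nlrc5 and Tap1), where 19.6% of 10532 genes were called by the Simes test of edgeR's diffSpliceDGE.

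Nlrc5 was mostly Nlrc5-207, the longest coding transcript at 7578 bases, with 95.5%, 95.5%, 93.0% and 89.3% of its counts in the WT libraries and 87.0%, 86.2%, 78.2% and 87.1% in KO. Every KO share was below every WT share. Nlrc5-204, a coding transcript of 4552 bases, made up 0.312% ± 0.167 in WT and 3.51% ± 0.439 in KO (SD, n = 4 each), and rose in CPM (log2 fold change 2.72, SE 0.29, adjusted p = 2.7e-04 by edgeR) while the gene fell. Nlrc5-201 made up 1.45% ± 1.24 in WT and 7.92% ± 3.96 in KO and was not called as a transcript (adjusted p = 0.14). The usage test of Nlrc5 had an adjusted p of 2.5e-06, and the call held without each ladder library in turn.

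Tap1 was divided between Tap1-201 and Tap1-206, both coding. Tap1-201 had 54.6%, 61.3%, 43.5% and 46.3% in WT and 39.9%, 41.9%, 44.0% and 34.8% in KO, and Tap1-206 had 38.9%, 29.6%, 52.5% and 49.2% in WT and 57.2%, 55.65%, 53.85% and 63.2% in KO. Tap1-206 was thus above every WT library in every KO library, and Tap1-201 overlapped between the groups. In CPM, Tap1-206 went from 53.4 to 103 and had an adjusted p of 0.050 by edgeR, just over the threshold, and Tap1-201 went from 60.1 to 72.4 (adjusted p = 0.19). The retained-intron transcripts Tap1-202 (2.61 to 1.44 CPM) and Tap1-204 (2.55 to 1.18 CPM) fell while the gene rose. The usage test of Tap1 had an adjusted p of 0.013, and the call was lost without WT library 2 (0.091), KO library 3 (0.054) or KO library 4 (0.084).

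**Figure D3:**
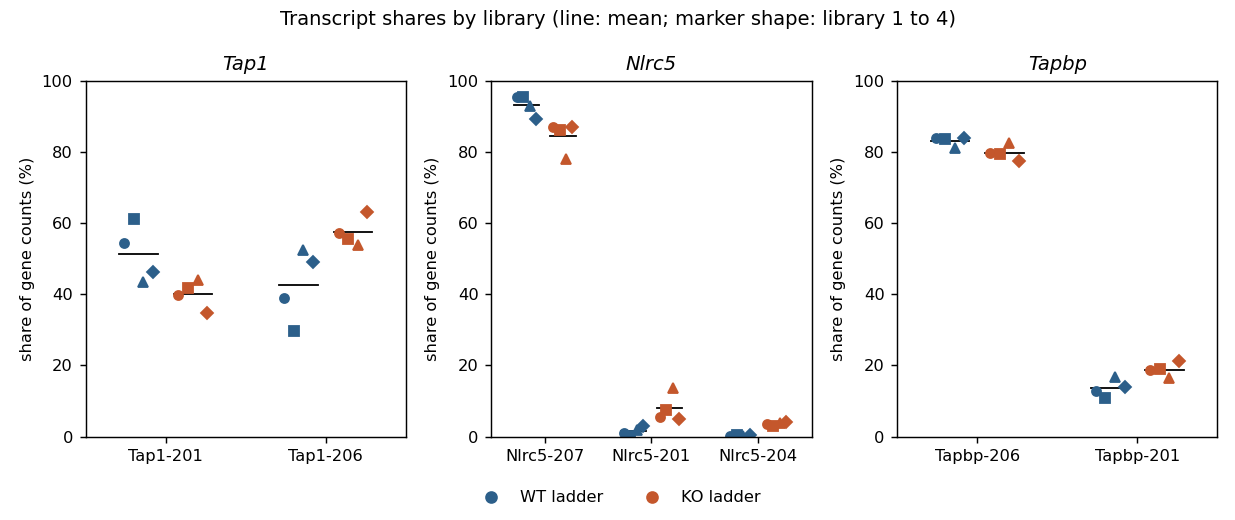
Share of each gene's estimated counts (vertical axis, percent) of the leading transcripts of Tap1, Nlrc5 and Tapbp in 4 WT and 4 KO ladder libraries; lines are means and marker shapes give the library number. Tap1-206 is higher and Nlrc5-207 lower in every KO library than in any WT library, and Tapbp shares overlap.

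The other genes kept 1 leading transcript in both genotypes, and their usage was not called. B2m had 1 transcript with counts, B2m-201. H2-D1-202 made up 98.5% of H2-D1 in WT and 99.2% in KO, and H2-K1-201 made up 88.3% and 87.8% of H2-K1, beside H2-K1-205 at 9.39% and 10.4%. Tapbp-206 had 83.2% and 79.8% and Tapbp-201 13.6% and 18.8%; both rose in CPM. Psmb8-203 had 91.9% and 91.4% of Psmb8. In Tap2 the leading entry was not a coding one: Tap2-202, annotated with a retained intron, had 85.3% ± 0.384 in WT and 85.1% ± 0.814 in KO, and the coding Tap2-201 had 14.4% ± 0.452 and 14.7% ± 0.823 (SD, n = 4 each). Both Tap2 transcripts rose, Tap2-201 from 4.68 to 10.4 CPM. In Psmb9 the coding Psmb9-204 had 65.1% and 66.6%, and Psmb9-205, with a retained intron, 22.5% and 24.7%.

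Between library types 8 of the 9 genes differed by more than between genotypes, and Tapbp, on this scale, did not. In WT cells, 8 of the 9 genes were higher in ladder than in standard libraries (edgeR over the targets that all short-read files share), where 30.8% of 16131 genes were called higher and 61.1% were called in either direction. The median log2 difference was 5.47 over the 9 genes and 0.0046 over all genes. Summed over the 9 genes and on this scale, WT ladder libraries had 5717 to 6081 CPM, KO ladder libraries 4004 to 4777 CPM and standard libraries 115 to 156 CPM. B2m had 42.7, 25.2 and 43.5 CPM in the standard libraries and 1955 CPM ± 149 in the WT ladder libraries (log2 difference 5.72, SE 0.25, adjusted p = 2.6e-06). H2-D1 had 17.5, 24.996 and 35.5 CPM in standard and 2054 CPM ± 159 in ladder libraries, and H2-K1 had 38.9, 42.2 and 49.1 CPM beside 1602 CPM ± 135. Per length H2-K1 was above H2-D1 in each standard library, where H2-D1 made up 30.0% ± 3.36 of their summed TPM (SD, n = 3), a share below that of every ladder library.

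Psmb8 had the largest difference of the 9, with 0.948, 0.313 and 1.74 CPM in standard and 196 CPM ± 15.6 in ladder libraries (log2 difference 7.61, SE 0.45). Nlrc5 (0.859 CPM ± 0.335 in standard, log2 difference 6.42) and Psmb9 (1.04 CPM ± 0.698, log2 difference 5.47) were also close to 1 CPM in standard libraries. Tap1 differed by 4.02 and Tap2 by 3.34 on the log2 scale in CPM. In TPM, which was not TMM-normalised, their differences were smaller, with a mean of 36.6 TPM in WT ladder and 7.94 TPM in standard libraries for Tap1. For Tap2 these were 10.5 and 3.87 TPM. The immunoproteasome share moved with them: Psmb8 was 0.871% ± 0.479 of Psmb8 and Psmb5 in standard libraries and Psmb10 was 11.5% ± 1.32 of Psmb10 and Psmb7 (SD, n = 3 each). Tapbp was not called over shared targets (log2 difference -0.11, adjusted p = 0.75), but its leading ladder transcript Tapbp-206 is not a target of standard library 2. Over all annotated targets of each file, an alternative added after seeing the data, Tapbp had 13.8, 13.3 and 19.3 CPM in standard and 67.7 CPM ± 14.9 in ladder libraries (log2 difference 2.13, SE 0.23, adjusted p = 9.5e-05 by edgeR).

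The genes around the 9 differed in the same contrast by role. Of 18 other heavy chains tested 13 were higher in ladder libraries and none was lower, with H2-T23 at 2.06 CPM in standard and 222 CPM in ladder libraries. Of 9 other proteasome genes 7 were higher and 2 (Psme3 and Psme4) were lower. In CPM the constitutive Psmb5, Psmb6 and Psmb7 were higher by 2.06, 2.01 and 1.64 on the log2 scale, beside 4.81 for Psmb10. In TPM the constitutive genes were much closer, but the scales differ. CPM here was TMM-normalised over shared targets, whereas TPM was scaled to the total of each library over its own targets. A shift of scale between library types is therefore part of every TPM comparison below, and it was not set apart from a gene's own difference. Mean TPM in WT ladder and standard libraries was 223 and 171 for Psmb5, 321 and 257 for Psmb6, and 207 and 206 for Psmb7. Psmb10 had 186 and 26.7 TPM. Of 13 loading and trimming genes 2 were higher, 4 were lower and 7 were not called in CPM, with Calr, Pdia3, Hspa5 and Sec61a1 not called. In TPM these named genes were all lower in WT ladder than in standard libraries. Mean TPM in WT ladder and standard libraries was 158 and 561 for Calr and 85.7 and 404 for Pdia3. It was 156 and 520 for Hspa5 and 40.7 and 126 for Sec61a1. Irf1 was higher in ladder libraries by 2.52 on the log2 scale in CPM, and Ifnar1, Ifngr1, Jak2 and Rfx5 were not called. Mean TPM in WT ladder and standard libraries was 8.36 and 5.46 for Irf1 and 14.1 and 44.9 for Ifnar1. It was 6.76 and 16.9 for Ifngr1, 12.9 and 37.8 for Jak2, and 2.36 and 12.2 for Rfx5. TPM was not tested between library types. Library preparation, sequencer, read length and the set of targets differed between ladder and standard libraries, so library type and these cannot be told apart. The standard libraries also differed in cell markers. Endothelial markers summed to 732 to 1669 CPM there, nearly all of it Pecam1, with Cldn5 at 0 to 0.54 CPM, beside 17.9 to 22.6 CPM in WT ladder libraries. Neural progenitor markers summed to 4812 to 6262 CPM in standard and 10423 to 11204 CPM in WT ladder libraries, but single genes went both ways. Fabp7 had 711 to 1139 CPM in standard and 5128 to 5699 CPM in WT ladder libraries, and Nes 794 to 981 and 186 to 296 CPM. Of these 12 markers 5 were called higher in ladder libraries, 3 lower and 4 were not called. The part of the cell markers in the class I difference was not tested.

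**Figure D4:**
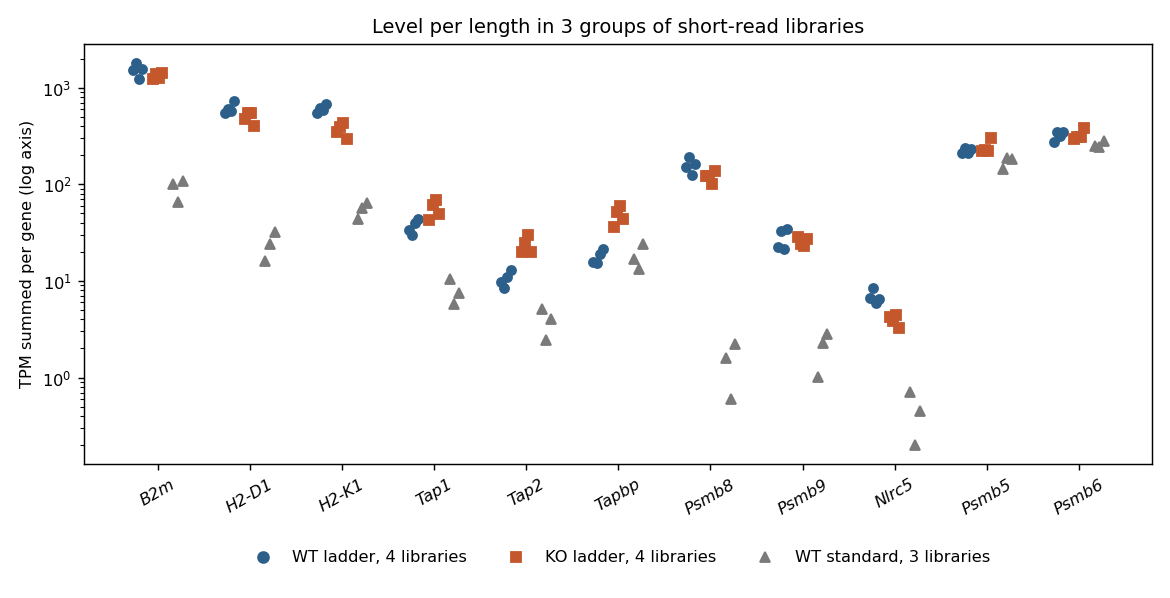
TPM summed per gene (log vertical axis) of the 9 genes and of Psmb5 and Psmb6 in WT ladder, KO ladder and WT standard libraries, 1 point per library. The WT standard libraries lie far below both ladder groups for B2m, H2-D1, H2-K1, Psmb8, Psmb9 and Nlrc5, less so for Tap1 and Tap2, and near the WT ladder libraries for Tapbp.

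Per length, B2m was the highest of the 9 in all groups, with 1528 TPM ± 230.1 in WT ladder, 1309.7 TPM ± 89.6 in KO ladder and 91.7 TPM ± 22.3 in standard libraries. In WT ladder libraries H2-D1 (612 TPM ± 79.6) and H2-K1 (607 TPM ± 51.8) followed and did not differ beyond their spread. Psmb8 (157 TPM ± 28.0) came next, then Tap1 (36.6 TPM ± 6.05), Psmb9 (27.6 TPM ± 6.70), Tapbp (17.9 TPM ± 2.95), Tap2 (10.5 TPM ± 1.93) and Nlrc5 (6.91 TPM ± 1.15). Tap1 and Psmb9 overlapped. In KO libraries the order below Psmb8 was Tap1 (55.4 TPM ± 11.6), Tapbp (47.9 TPM ± 9.87), Psmb9 (25.5 TPM ± 2.41), Tap2 (23.6 TPM ± 4.66) and Nlrc5 (3.94 TPM ± 0.542), so that Tapbp stood above Psmb9 in every KO library and below it in every WT library; the closest pair was 18.8 and 21.3 TPM in WT library 3.

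Long reads gave 1 assembly per genotype and chemistry, with no replicate check and no error; values are StringTie TPM, summed over assembled transcripts that hold an annotated intron of the gene. B2m had 228 TPM in WT and 129 TPM in KO native RNA, and 19.8 TPM in WT and 9.27 TPM in KO direct cDNA. H2-K1 had 57.9 and 29.6 TPM in native RNA and 4.03 and 2.42 TPM in cDNA. H2-D1 had 41.4 and 36.0 TPM in native RNA and 4.17 and 3.22 TPM in cDNA. For these genes TPM was lower in KO in both chemistries. Psmb5 was lower too, with 333 and 273 TPM in native RNA and 17.9 and 10.7 TPM in cDNA. Relative to Psmb5, described below, H2-D1 was not lower in KO in either chemistry, but this rests on the denominator. Psmb7 had 425 and 384 TPM in native RNA and, unlike Psmb5, was higher in KO cDNA, with 22.1 and 31.5 TPM. Psmb6 had 471 and 310 TPM in native RNA and 34.5 and 28.1 TPM in cDNA. Tap1 was higher in KO in both chemistries, with 5.46 and 7.99 TPM in native RNA and 0.239 and 0.658 TPM in cDNA. Tapbp had 10.4 and 14.8 TPM in native RNA, or 16.4 and 14.8 TPM when transcripts were assigned by exon overlap, and 1.64 and 1.82 TPM in cDNA. Tap2 was lower in KO, at 3.77 TPM in WT and listed at 0 in KO native RNA and at 0.573 and 0.347 TPM in cDNA, but these rest on a read coverage of 3.86 and 7.78 in the largest transcript. By exon overlap Tap2 had 3.77 TPM in WT and 3.13 TPM in KO native RNA. Calr, which fell in the ladder libraries, was higher in KO, with 197 and 238 TPM in native RNA and 23.4 and 43.1 TPM in cDNA. H2-T23, which rose there, was lower in KO, at 5.42 TPM in WT and listed at 0 in KO native RNA and at 0.708 and 0.155 TPM in cDNA. Mettl14 had 19.8 TPM in WT and 13.7 TPM in KO native RNA, and 1.684 and 1.676 TPM in cDNA, so its summed level did not separate the cDNA assemblies by genotype.

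The weakest genes were at the edge of detection in long reads. Psmb8 had 2.89 TPM in KO native RNA (coverage 2.42), no StringTie transcript in WT native RNA, and 0.440 and 0.336 TPM in cDNA. FLAIR, another assembler whose structures carry no TPM, listed Psmb8-201 in native RNA of both genotypes. For Tap2 it listed a structure of 8 exons in native RNA of both genotypes. Psmb9 was listed in WT cDNA alone (0.344 TPM), and Nlrc5 in KO cDNA alone (0.153 TPM, coverage 1.89). Where exon chains matched the annotation, they were mostly the leading short-read transcripts: B2m-201 was 98.0% and 97.2% of B2m in WT and KO cDNA, and H2-K1-201 was 93.4% and 88.8% of H2-K1 in WT and KO native RNA. In cDNA Tap1 matched Tap1-206 in both genotypes, the leading transcript of the KO ladder and standard libraries but not of the WT ladder mean. Tap2 matched the coding Tap2-201, not the retained-intron Tap2-202. Psmb8 in cDNA matched Psmb8-201, which led in standard libraries 1 and 3 (58.6% and 73.1%), and not Psmb8-203, which led in all ladder libraries.

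Relative to Psmb5, a constitutive proteasome gene used here as a common denominator per length, the long-read levels of B2m, H2-D1, H2-K1, Psmb8 and Psmb10 lay nearer to the standard than to the ladder libraries. B2m over Psmb5 was 5.88 to 7.52 in WT ladder, 4.68 to 6.04 in KO ladder and 0.358 to 0.694 in standard libraries, and 0.687 and 0.473 in WT and KO native RNA and 1.11 and 0.865 in WT and KO cDNA. H2-D1 over Psmb5 was 2.53 to 3.11 in WT ladder and 0.110 to 0.175 in standard libraries. It was 0.125 and 0.132 in WT and KO native RNA and 0.233 and 0.301 in WT and KO cDNA, so not lower in KO. H2-K1 over Psmb5 was 0.174 and 0.108 in WT and KO native RNA but 0.225 and 0.226 in WT and KO cDNA. Psmb7 over Psmb5 was 1.28 and 1.40 in WT and KO native RNA and 1.23 and 2.94 in WT and KO cDNA. The comparison of KO with WT in cDNA thus depends on which constitutive gene is the denominator. Psmb8 over Psmb5 was 0.590 to 0.800 in WT ladder and 0.0032 to 0.0122 in standard libraries, beside 0.0106 in KO native RNA and 0.0246 in WT cDNA. Tap1 over Psmb5 was 0.125 to 0.188 in WT ladder, 0.165 to 0.307 in KO ladder and 0.0314 to 0.0722 in standard libraries. In long reads it was 0.0164 and 0.0292 in WT and KO native RNA and 0.0133 and 0.0614 in WT and KO cDNA. Tapbp over Psmb5 was 0.0635 to 0.0924 in WT ladder and 0.0715 to 0.132 in standard libraries, with no such gap between them. In native RNA it was below both ranges, at 0.0312 in WT and 0.0542 in KO. In cDNA it was 0.0918 in WT and 0.169 in KO, the latter within the 0.146 to 0.265 of the KO ladder libraries. Nlrc5 over Psmb5 in KO cDNA was 0.0142, also within the KO ladder range (0.0108 to 0.0201) and above the standard range (0.0011 to 0.0049). These are descriptions of a few libraries, and no test was made between data types.

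**Figure D5:**
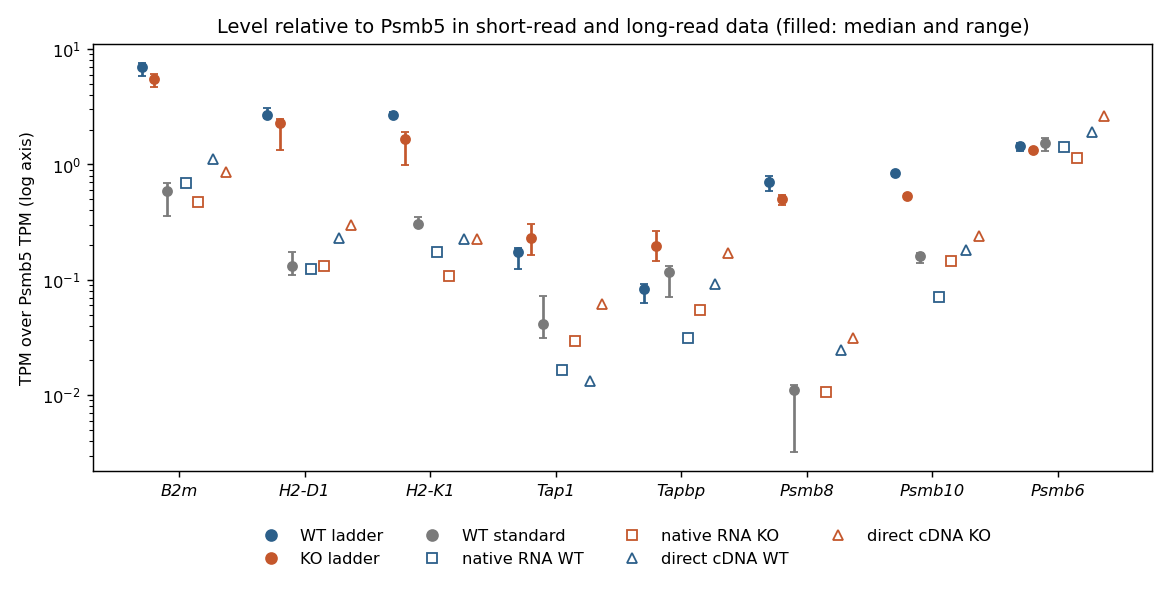
TPM of 8 genes divided by the TPM of Psmb5 in the same library (log vertical axis) in short-read groups (filled points, median and range over libraries) and in the 4 long-read assemblies (open symbols, 1 value each; a gene listed at 0 has no symbol). For B2m, H2-D1, H2-K1, Psmb8 and Psmb10 the open symbols lie near the standard libraries and below the ladder libraries, and Psmb6, at 1.27 to 1.71 in the short-read libraries, runs from 1.14 in KO native RNA to 2.62 in KO cDNA.

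The genes whose CPM followed B2m most closely over the 11 short-read libraries were D10Jhu81e, Apoe, Pef1, Tlcd1 and Ifi27, with Pearson's r of 0.997 to 0.998 across libraries. For H2-K1 they were Bnip3l-ps, Tor3a, Oas1b, Gpr37l1 and Zbp1, with r of 0.996 to 0.998. The libraries fall into ladder and standard groups that differ in level for all of these genes, so the r values mostly restate that difference; they are given as descriptions. Tor3a went from 102 CPM in WT to 64.1 CPM in KO ladder libraries and 9.52 CPM in standard libraries, and Ifi27 was 372 CPM in WT ladder, 366 CPM in KO ladder and 0.592 CPM in standard libraries.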

How the data were processed

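Estimated counts and TPM per transcript target were deposited by the authors from kallisto, and STAR 2.5.4b, StringTie and minimap2 2.17 on GRCm38/mm10 are named in the submitters' processing notes; how the 7 bands were combined is not stated there or in the labels. Long-read StringTie TPM and coverage (signal) were deposited by the authors as assemblies per genotype and chemistry. Targets were matched to GENCODE M21 (138878 matched), summed per gene and rounded; assembled targets stayed in the library totals. Depth was 103752000 to 126922000 estimated counts per ladder library and 12084500 to 13987900 per standard library. edgeR 4.0.16 (filterByExpr, TMM, robust quasi-likelihood, Benjamini-Hochberg over all features) gave log2 fold changes; SE is the fold change divided by the root of F. Ladder was set against standard libraries over 105882 shared targets. Alternatives used DESeq2 1.42.0 and limma 3.58.1. Ratios used exact permutation tests. Scripts were tested on simulated data. The members and all lists were chosen with earlier results of these data known. From each list up to 3 rises and 3 falls by size, with a mean log2 CPM of at least 0, were named, beside the RFX genes, Irf1, the catalytic proteasome pairs, transcripts with at least 10% of a gene in any short-read group, and the 5 genes most like B2m and H2-K1. Some genes of the lists are not reported by name here.
Promoter windows came from RefSeq on GRCm38.p6. The replicate numbers of WT and KO libraries did not pair them, since same-numbered deviations correlated at -0.08, 0.001, -0.02 and 0.03.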

Additional observations from a re-analysis of the deposited data

Results flagged for a closer look

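Of 66 groups of 4 ladder libraries looked at (levels, transcript shares and ratios), 5 held a library whose gap to the nearest other exceeded Dixon's 95% limit as a share of the range; chance gives about 1 in 20 such groups. H2-D1-202 made up 95.7% of H2-D1 in WT library 4, where H2-D1-204, an entry with a retained intron, had 3.73% and the other WT libraries at most 0.07%. In KO library 1 H2-D1-202 made up 98.4%, the lowest of the KO libraries, and H2-D1-204 1.14%. H2-K1-205 made up 7.63% of H2-K1 in WT library 2, Tapbp-206 made up 81.1% of Tapbp in WT library 3, and Nlrc5-207 made up 78.2% of Nlrc5 in KO library 3; these were the lowest of their groups.

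Tap2 was higher in every KO than in every WT ladder library, but lower in KO in both long-read chemistries, by 3.77 TPM in native RNA (KO minus WT -3.77) and by 0.23 TPM in cDNA (KO minus WT -0.23). By exon overlap the native difference was -0.64 TPM. Relative to Psmb5, Tap2 in cDNA was 0.0320 in WT and 0.0324 in KO, so nearly equal. Psmb5 itself was lower in KO cDNA, with 17.9 TPM in WT and 10.7 TPM in KO. The difference between data types was not tested.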

How the results depend on the processing

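Alternatives kept the direction of all 9 genes in the KO comparison, and Tap2, Tapbp, H2-K1 and Nlrc5 kept their calls in all 18. A test beyond a 1.5-fold change called 2145 genes higher and 2066 lower, with 2 of the 9 genes lower. H2-D1, Psmb8 and Tap1 had estimates smaller than 1.5-fold, so that test could not call them. All 3 groups in 1 fit also called 2 of the 9 lower. Without each library in turn, the 9 genes gave 3 higher and 3 to 5 lower, member transcripts lower in KO numbered 7 to 12, and members with changed usage 1 to 3. In the ladder against standard comparison, all annotated targets of each file called 7752 genes higher and all 9 members; Tapbp reversed there to 2.13, and without each library it ranged from -0.36 to 0.027. By exon overlap, the native KO minus WT difference of Tapbp reversed to -1.60 TPM. The cause of these shifts was not tested. Ratios without each library kept their direction and stayed within 1 SD. These ratios of 3 against 4 libraries were not tested. The ratio of B2m to the heavy chains ranged from 0.17 to 0.39. With the replicate number as a block, 4922 genes were higher and 5027 lower, with 3 and 4 of the 9 genes, and no call of these 9 changed; the ladder against standard block called 3850 genes higher and 3656 lower, and 8 of the 9. Not every library correlated best with its own number, so these numbers do not pair the libraries. Standard libraries hold 12084500 to 13987900 counts, where genes near 1 CPM rest on few counts.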
